A study of Mus musculus with 6 samples.

Results

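Solute carriers are membrane proteins that move amino acids, sugars, ions, vitamins and metabolites across the plasma membrane and across the membranes of organelles. The genes described here are those with a symbol of the form Slc, a family number, the letter a and a member number, except Slc1a2, Slc1a3, Slc2a1 and Slc4a1, which were set aside by name. Of the 6656 named genes whose probe could be linked between the deposited value table and the array files, 149 fit this form, and each is represented by its brightest probe. In all, 294 genes of the reference annotation fit, so 145 are not described here, among them the lactate carriers Slc16a1, Slc16a3 and Slc16a7. The form also takes in 4 proteins that are not carriers, namely Slc9a3r1 and Slc9a3r2, scaffolds that bind exchangers, and Slc4a1ap and Slc7a6os.

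Optic nerves came from male mice lacking leukemia inhibitory factor (LIF-/- on the CD1 background) and from CD1 wild-type mice, and were compared at postnatal days 10, 14 and 35. The optic nerve is a white matter tract of retinal axons, oligodendrocytes, their precursors, astrocytes, microglia, vessels and meninges, and holds no neuronal cell bodies. LIF is a cytokine of the interleukin 6 family. Each combination of genotype and age was 1 pool, of 10 nerves at day 10, 8 at day 14 and 4 at day 35, measured on 1 Illumina MouseRef-8 array, which leaves no replicate behind a difference between LIF knockout (KO) and wild-type (WT) nerve at 1 age.

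Carriers divide labour between cell types in white matter. Glutamate, GABA and glycine released near axons are taken up by sodium-coupled carriers of the Slc1 and Slc6 families, and vesicular carriers of the Slc17 and Slc32 families load them into vesicles in neurons. Glucose carriers of the Slc2 family and monocarboxylate carriers of the Slc16 family pass fuel between vessels, glia and axons, potassium-chloride and bicarbonate carriers of the Slc12 and Slc4 families set ion balance and pH, and Slc25 carriers link the mitochondrial matrix to the cytosol.

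All levels below are log2 probe signals after background correction and quantile normalization, and they compare arrays for 1 probe, not different probes with each other. Between 12222 and 13292 of 24606 probes were detected per array (detection p below 0.05), and between 134 and 146 of the 149 carriers. These shares are not alike, since a carrier needed a deposited value, and 15646 of 24613 deposited probes have none. Of the named genes linked in the same way, 6616 of 6656 were detected on at least 2 arrays, as were 148 of the 149 carriers. The Lif probe signals were 5.71, 5.13 and 5.14 in KO nerve at days 10, 14 and 35, against 5.47, 5.48 and 5.04 in WT nerve, near background on each array (detection p between 0.00487 and 0.0292), so the probe did not separate the genotypes. Days 10 and 14 shared 1 slide and day 35 lay on another: each KO-WT difference therefore lies within a slide, while age and slide cannot be told apart in any step that ends at day 35. Markers of tissue outside the nerve differed between pools, with skeletal muscle genes highest in the KO pool at day 35, rod photoreceptor genes in the KO pool at day 14, fat and red cell genes in the KO pool at day 10, and pituitary genes in the WT pools at days 10 and 14 and the KO pool at day 35 (summed raw signal 237.8, 187.1 and 905.7 in KO nerve at days 10, 14 and 35, against 879.5, 975.8 and 380.4 in WT nerve). The pituitary differences lay mainly in Cga and Chga at days 10 and 14 and in Prl at day 35. In pools of whole nerve, fewer cells of a type and less RNA per cell cannot be told apart.

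Every carrier that passed a test did so between ages. In the age tests the KO and WT pools served as the replicates of an age, so a genotype difference that changed with age counted as spread. Between days 10 and 35, 16 carriers rose and 14 fell, 30 of 148 tested (20.3%), at an adjusted p below 0.05 (limma, day and genotype as terms, Benjamini-Hochberg over all 13827 tested probes). The background was of the same size: 20.8% of all tested probes passed, with 10.6% higher and 10.2% lower, as did 23.5% of the 6616 named genes (10.6% higher, 12.8% lower). Between days 14 and 35, 9 rose and 13 fell, or 14.9% of carriers beside 14.9% of probes (7.74% higher, 7.12% lower) and 16.2% of named genes (7.5% higher, 8.75% lower). The median carrier moved by -0.07 and -0.02 log2 units in these comparisons, near the medians of -0.08 and -0.04 over named genes. The calls of the comparison with day 14 drew on the day 10 arrays for the estimate of spread. Without them 0 carriers and 0 probes passed, and the lowest adjusted p of a carrier was 0.0536. The fitted differences are the same with and without day 10 by construction (Slc1a1 at -1.64), since only the arrays of days 14 and 35 enter them. Fewer residual degrees of freedom were left, and the reason for the lost calls was not tested. Calls of day 35 minus day 10 that were lost in 3 of the other ways of processing were those of Slc6a20a, Slc13a3, Slc26a6, Slc31a2, Slc34a3, Slc22a5 and Slc23a2.

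**Figure D1:**
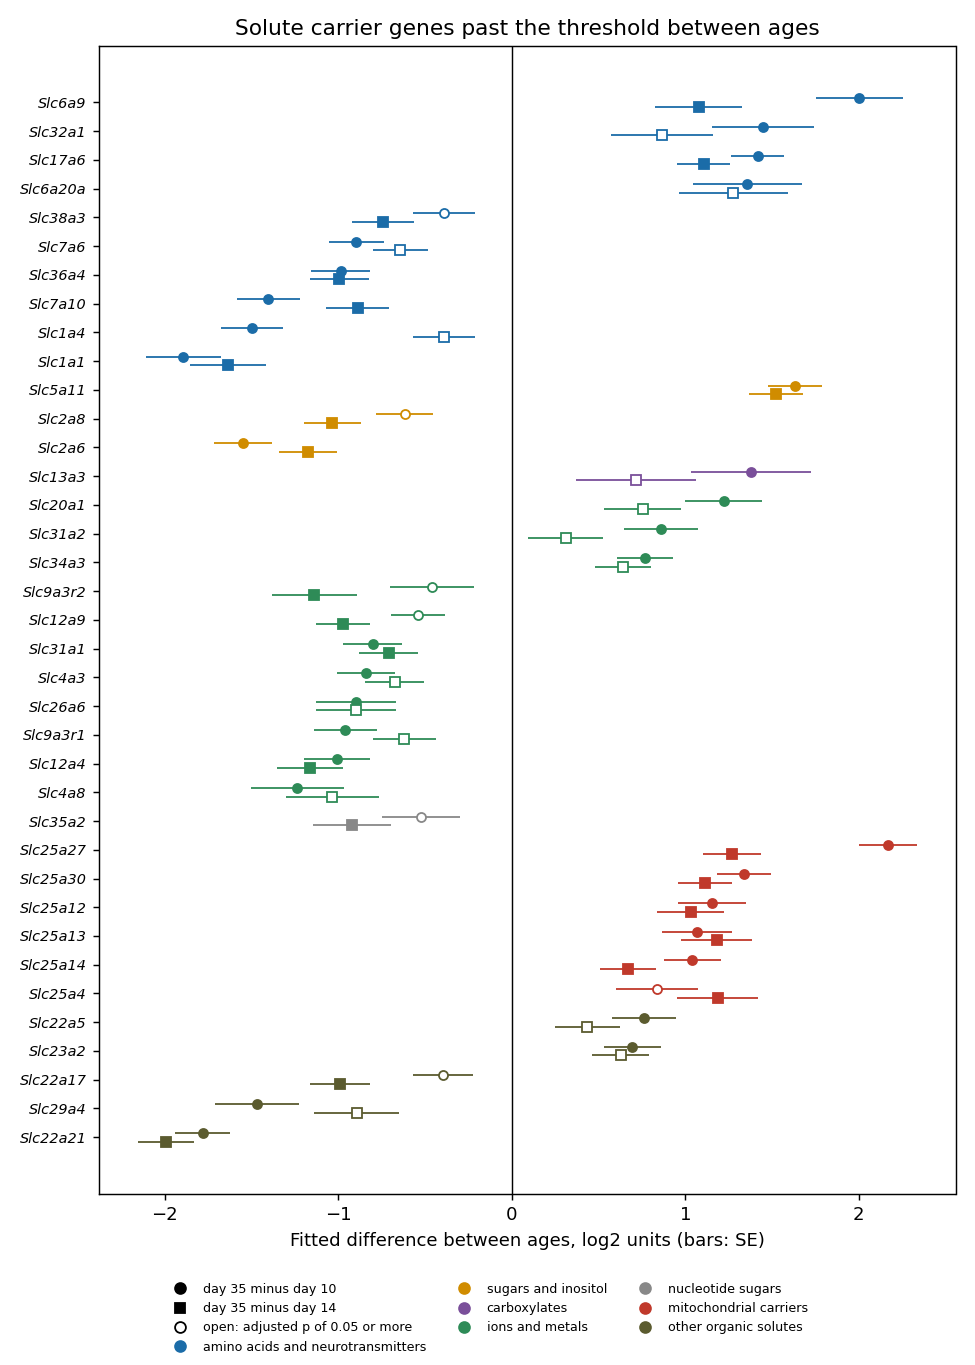
Fitted differences between ages in log2 units, with SE bars, for the 37 carriers that passed at least 1 of the day 35 comparisons. Circles are day 35 minus day 10 and squares day 35 minus day 14, filled where the adjusted p was below 0.05; all 6 filled mitochondrial carriers lie right of 0, and Slc1a1, Slc22a21 and Slc2a6 lie farthest left.

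In all, 37 carriers were called in at least 1 of these comparisons, which share the day 35 arrays. For 13 carriers the deposited table holds values on the day 35 arrays alone, so these genes entered through their day 35 signal. Of the 12 of them that were tested, 5 rose between days 10 and 35 and 0 fell, beside 99 of 240 named genes (41.2%) of the same kind. The other 136 carriers, with deposited values on all 6 arrays, gave 11 that rose and 14 that fell (18.4%), beside 9.47% higher and 13.3% lower among the 6376 named genes of that kind. Between days 14 and 35, 4 of the 12 rose and 0 fell, beside 84 of the 240 named genes (35%), all of them higher. The other 136 gave 5 that rose and 13 that fell (13.2%), beside 6.46% higher and 9.08% lower among the 6376.

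Among 22 mitochondrial carriers, 5 were higher at day 35 than at day 10 (22.7%, beside 23.5% of named genes called in either direction, with 10.6% higher and 12.8% lower). Against day 14, 6 were higher (27.3%, beside 16.2% in either direction, with 7.5% higher and 8.75% lower), and 0 were called lower in either comparison. Of these, Slc25a13 and Slc25a30 belong to the 13 carriers with deposited values at day 35 alone, a kind in which 0 of the 240 named genes were called lower than at day 10. The 19 mitochondrial carriers with values on all 6 arrays gave 3 that rose from day 10 (15.8%, beside 9.47% of named genes of that kind). From day 14, 4 of them rose (21.1%, beside 6.46%), and these small counts carry no test. Slc25a27, also known as uncoupling protein 4 and first described in brain, had the largest fitted rise of any carrier between days 10 and 35. Slc25a27 read 7.38, 8.30 and 9.68 in KO nerve at days 10, 14 and 35, against 7.68, 8.56 and 9.71 in WT nerve, higher at each later age in both genotypes. The fitted difference from day 10 to day 35 was 2.17 ± 0.17 (SE, adjusted p = 0.00877) and from day 14 1.27 ± 0.17 (SE, adjusted p = 0.0195). Slc25a14, or uncoupling protein 5, belongs to the same uncoupling protein branch. Slc25a14 read 6.52, 6.93 and 7.68 in KO nerve at days 10, 14 and 35, against 6.90, 7.24 and 7.82 in WT nerve, again ordered by age in both genotypes, with a difference of 1.04 ± 0.16 (SE, adjusted p = 0.0175) from day 10. Slc25a30 read 4.63, 4.89 and 5.99 in KO nerve at days 10, 14 and 35, against 4.70, 4.88 and 6.01 in WT nerve; this carrier, close in sequence to Slc25a14, was not above background on the 4 arrays of days 10 and 14 and passed the detection filter through day 35 alone, at least 2.39-fold above day 10.

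Slc25a12 and Slc25a13 are the aspartate-glutamate carriers, which export aspartate from mitochondria as part of the malate-aspartate shuttle. Slc25a12 read 6.94, 7.34 and 8.19 in KO nerve at days 10, 14 and 35, against 7.24, 7.08 and 8.30 in WT nerve, so the day 35 arrays lay above the other 4. The fitted difference was 1.15 ± 0.20 (SE, adjusted p = 0.0196) from day 10 and 1.03 ± 0.20 (SE, adjusted p = 0.0302) from day 14. Slc25a13, also called citrin and one of the carriers that entered through their day 35 signal, stood at 4.84 in KO nerve against 5.03 in WT nerve at day 10, close to background, and at 6.07 in KO nerve against 5.94 in WT nerve at day 35, a difference of 1.07 ± 0.20 (SE, adjusted p = 0.0243). Its WT array at day 14 was not above background. Slc25a4, the adenine nucleotide translocator of muscle and brain, passed in the later comparison only, at 1.19 ± 0.23 (SE, adjusted p = 0.0326). Slc25a4 read 10.52, 9.75 and 11.15 in KO nerve at days 10, 14 and 35, against 9.84, 9.91 and 10.88 in WT nerve. The KO pool at day 35 also held the highest skeletal muscle signal (summed raw signal of 6 marker genes 7363.1 in KO nerve and 384.4 in WT nerve at day 35), and the part of muscle RNA in the Slc25a4 level was not tested. The translocator Slc25a5, made in most cells, differed by 0.10 (adjusted p = 0.672) and the phosphate carrier Slc25a3 by -0.08 (adjusted p = 0.759). Slc25a18, a mitochondrial glutamate carrier, showed the largest day 10 to day 14 difference of any carrier, -1.34 (adjusted p = 0.24), which did not pass.

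**Figure D2:**
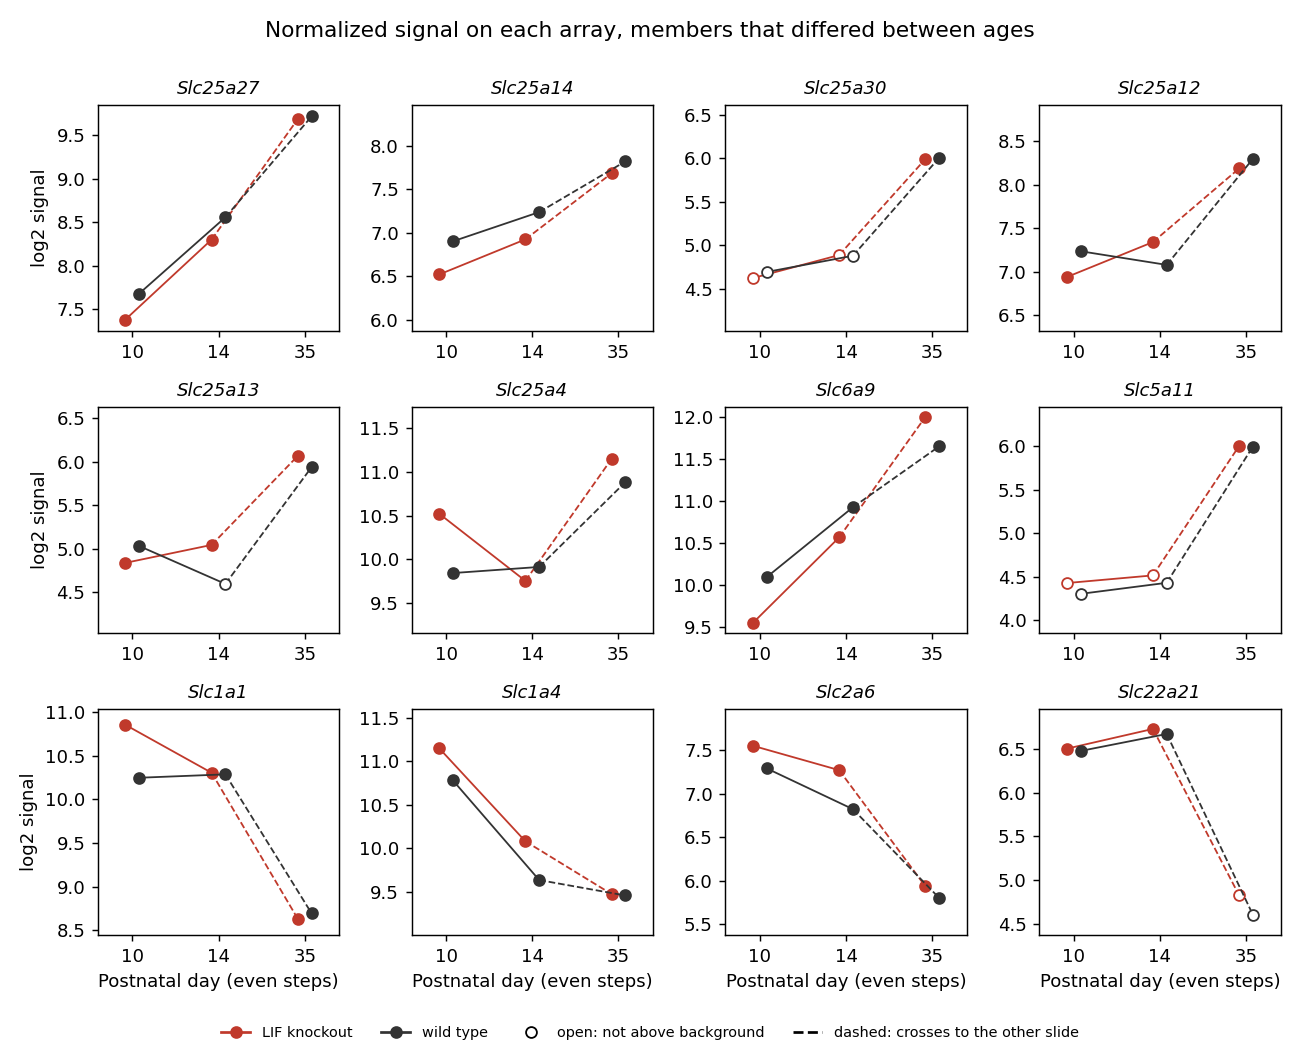
Normalized log2 signal on each of the 6 arrays for 12 carriers, KO nerve in red and WT nerve in black, by postnatal day in even steps. Open points were not above background and dashed lines cross to the other slide; Slc25a27 and Slc6a9 are higher at each later age, Slc1a4 is lower at day 14 than at day 10 in both genotypes, and Slc5a11, Slc25a30 and Slc22a21 change detection between day 14 and day 35.

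Among 36 amino acid and neurotransmitter carriers, 4 rose and 5 fell between days 10 and 35 (25%, beside 23.5% of named genes). Slc6a9 is the glycine transporter that glia use to clear glycine. Slc6a9 read 9.55, 10.57 and 12 in KO nerve at days 10, 14 and 35, against 10.10, 10.93 and 11.65 in WT nerve, higher at each later age in both genotypes. The fitted difference was 2.0 ± 0.25 (SE, adjusted p = 0.0115) from day 10 and 1.08 ± 0.25 (SE, adjusted p = 0.0447) from day 14. Of the vesicular carriers, Slc17a6 read 5.08, 5.40 and 6.50 in KO nerve at days 10, 14 and 35, against 4.68, 4.98 and 6.09 in WT nerve, and 1.42 ± 0.15 (SE, adjusted p = 0.00986) was its difference from day 10. Slc17a6 loads glutamate into vesicles and belongs to the 13 carriers with deposited values at day 35 alone; its WT array at day 10 was not above background. Slc32a1 read 5.79, 6.62 and 7.84 in KO nerve at days 10, 14 and 35, against 5.63, 5.97 and 6.48 in WT nerve; Slc32a1 loads GABA and glycine. Its difference from day 10 was 1.45 ± 0.29 (SE, adjusted p = 0.0275), with the KO array at day 35 above all others. Slc6a20a, a carrier of proline and related imino acids, differed by 1.36 ± 0.31 (SE, adjusted p = 0.0366).

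The carriers that fell handle acidic, neutral or cationic amino acids. Slc1a1 is the glutamate and cysteine carrier of neurons and of some glia. Slc1a1 read 10.86, 10.31 and 8.63 in KO nerve at days 10, 14 and 35, against 10.25, 10.29 and 8.69 in WT nerve, so both day 35 arrays lay below the other 4, with a difference of -1.89 ± 0.22 (SE, adjusted p = 0.0104) from day 10. A second, dimmer probe of Slc1a1 went the same way at -1.04 (adjusted p = 0.0334). Slc1a4 carries alanine, serine, cysteine and threonine. Slc1a4 read 11.15, 10.08 and 9.47 in KO nerve at days 10, 14 and 35, against 10.78, 9.63 and 9.46 in WT nerve, with a difference of -1.50 ± 0.18 (SE, adjusted p = 0.011) from day 10. Within the first slide, day 14 minus day 10 was -1.11 (adjusted p = 0.24). Slc7a10 read 7.04, 6.71 and 5.86 in KO nerve at days 10, 14 and 35, against 6.82, 6.12 and 5.20 in WT nerve; this exchanger of D-serine and small neutral amino acids differed by -1.40 ± 0.18 (SE, adjusted p = 0.0119). Slc36a4, a proline and tryptophan carrier, fell by 0.99 on the log2 scale (adjusted p = 0.0205) and Slc7a6, an exchanger of cationic and neutral amino acids, by 0.90 (adjusted p = 0.0211). Slc38a3, a glutamine carrier of astrocytes, passed in the comparison with day 14 alone at -0.74 (adjusted p = 0.0476). The large neutral amino acid carrier Slc7a5 and its partner chain Slc3a2 did not pass, at -0.99 (adjusted p = 0.0787) and -0.49 (adjusted p = 0.0864). For the cationic amino acid carrier Slc7a2 the brightest probe gave 0.17 (adjusted p = 0.51), and a dimmer one was above background on the 2 day 35 arrays alone.

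Amino acid carriers are a textbook target of ATF4, which acts on composite elements of the form TGATGNAA when amino acids run short, and of NRF2, which acts on antioxidant response elements of the core form TGACNNNGC. Promoter windows of 250 bases before to 50 after the annotated start (RefSeq, GRCm38.p6) were found for 119 of the 149 carriers and searched for both motifs on both strands. A TGATGNAA match stood in the windows of 6 of 119 carriers (5.04%) beside 4.51% of 27025 genes, and in those of 1 of 13 carriers that fell between days 10 and 35 and 0 of 15 that rose. TGACNNNGC stood in 25 of 119 (21%) beside 14.0% of genes, in 5 of 15 that rose (33.3%) and in 2 of 13 that fell (15.4%). Of the carriers, 33 have several windows, and a gene with more windows has more room for a match. Windows of 3 carriers are shown with matches in capitals: Slc1a4, the called carrier with TGATGNAA, Slc7a11, the cystine-glutamate exchanger, which holds 2 facing copies, and the first of the Slc6a9 windows with TGACNNNGC.
Slc1a4 promoter, chr11:20332664-20332963, minus strand: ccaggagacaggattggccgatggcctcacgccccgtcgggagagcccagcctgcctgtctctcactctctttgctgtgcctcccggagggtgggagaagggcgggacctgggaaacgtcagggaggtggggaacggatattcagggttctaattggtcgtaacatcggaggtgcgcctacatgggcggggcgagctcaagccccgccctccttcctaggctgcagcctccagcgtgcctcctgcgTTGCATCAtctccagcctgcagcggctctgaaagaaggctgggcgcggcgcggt
Slc7a11 promoter, chr3:50443564-50443863, minus strand: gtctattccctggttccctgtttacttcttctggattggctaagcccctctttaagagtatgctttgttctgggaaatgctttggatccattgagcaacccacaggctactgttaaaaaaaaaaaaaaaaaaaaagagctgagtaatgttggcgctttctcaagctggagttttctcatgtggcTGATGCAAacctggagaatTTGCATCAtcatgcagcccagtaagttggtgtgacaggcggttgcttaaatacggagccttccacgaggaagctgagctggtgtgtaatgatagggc
Slc6a9 promoter, chr4:117849100-117849399, plus strand: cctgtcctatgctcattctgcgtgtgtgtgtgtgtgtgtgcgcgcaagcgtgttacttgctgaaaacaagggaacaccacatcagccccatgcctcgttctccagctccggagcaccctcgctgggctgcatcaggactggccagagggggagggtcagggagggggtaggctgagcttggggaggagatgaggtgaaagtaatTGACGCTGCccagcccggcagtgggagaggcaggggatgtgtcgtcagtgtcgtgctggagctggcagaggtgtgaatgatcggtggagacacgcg
The match in Slc1a4 begins 4 bases before the start, those in Slc7a11 66 and 47 bases before it, and the one in Slc6a9 46 bases before it. Slc7a11 read 6.27, 6.43 and 6.67 in KO nerve at days 10, 14 and 35, against 7.01, 6.09 and 7.14 in WT nerve, ordered by age in KO nerve but not in WT nerve, with a difference that did not pass, of 0.27 (adjusted p = 0.519). A match is a run of letters and does not show that a factor binds there.

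Sugar carriers split. Slc5a11, a sodium-coupled myo-inositol carrier, was not above background on any array of days 10 and 14 and read 6.0 in KO nerve against 5.99 in WT nerve at day 35, at least 2.39-fold above day 10 and at least 2.44-fold above day 14 (adjusted p = 0.00913 and 0.0175). It is 1 of the 13 carriers with deposited values at day 35 alone and passed the detection filter only through the arrays where it was high. Its selection therefore favoured a rise. Slc2a6 is a glucose transporter of lysosomal membranes. Slc2a6 read 7.55, 7.27 and 5.93 in KO nerve at days 10, 14 and 35, against 7.29, 6.82 and 5.80 in WT nerve, lower at each later age in both genotypes, with a difference of -1.55 ± 0.17 (SE, adjusted p = 0.00986) from day 10. Slc2a8 read 6.78, 7.12 and 6.22 in KO nerve at days 10, 14 and 35, against 7.01, 7.51 and 6.33 in WT nerve; this intracellular hexose carrier differed by -1.03 ± 0.17 (SE, adjusted p = 0.024) from day 14 and by -0.62 (adjusted p = 0.0501) from day 10. The neuronal glucose carrier Slc2a3 differed by 0.53 (adjusted p = 0.167) and the insulin-responsive Slc2a4 by 0.53 (adjusted p = 0.208), neither past the threshold. Of the 13 genes in this group, counted by family, Slc5a5, Slc5a6 and Slc5a7 carry iodide, vitamins and choline, and none of them passed.

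Carboxylate carriers numbered 6, and 1 passed between days 10 and 35 (16.7%, beside 23.5% of named genes). Slc13a3 takes up succinate, other dicarboxylates and N-acetylaspartate with sodium. Slc13a3 read 7.74, 9.13 and 9.58 in KO nerve at days 10, 14 and 35, against 8.47, 8.41 and 9.39 in WT nerve, with a difference of 1.38 ± 0.34 (SE, adjusted p = 0.0436) from day 10. It kept its call in 6 of 9 other ways of processing, with adjusted p between 0.0343 and 0.122. The monocarboxylate family was represented by Slc16a6, Slc16a9, Slc16a11 and Slc16a13, whose differences between days 10 and 35 lay at -0.27, 0.20, -0.15 and -0.31 and did not pass. Basigin (Bsg) and embigin (Emb), the chaperones of lactate carriers, differed by -0.18 and -0.20, also short of the threshold.

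Ion and metal carriers gave 3 that rose and 6 that fell between days 10 and 35, of 44 tested (20.5%, beside 23.5% of named genes). Between days 14 and 35, 4 fell and 0 rose (9.09%, beside 16.2% of named genes). The fall included carriers of chloride and bicarbonate. Slc4a8 read 6.66, 6.97 and 5.63 in KO nerve at days 10, 14 and 35, against 7.57, 6.86 and 6.13 in WT nerve; Slc4a8 is a sodium-driven chloride-bicarbonate exchanger, and its difference was -1.24 ± 0.27 (SE, adjusted p = 0.0314). The potassium-chloride cotransporter Slc12a4 read 6.0 in KO nerve against 6.26 in WT nerve at day 10 and 5.26 in KO nerve against 4.99 in WT nerve at day 35. Its difference was -1.01 ± 0.19 (SE, adjusted p = 0.0241) from day 10 and -1.16 ± 0.19 (SE, adjusted p = 0.0255) from day 14, and it kept the first call in all 9 other ways of processing that could give one. The anion exchangers Slc4a3 and Slc26a6 differed by -0.84 (adjusted p = 0.0267) and -0.90 (adjusted p = 0.0453). Slc12a9, a relative of the potassium-chloride cotransporters, passed against day 14 alone at -0.97 (adjusted p = 0.0244), while a dimmer second probe read 0.56 in that comparison. The scaffolds Slc9a3r1 and Slc9a3r2, which tether sodium-proton exchangers to the cytoskeleton, differed by -0.96 (adjusted p = 0.0237) from day 10 and by -1.14 (adjusted p = 0.0371) from day 14; the sodium-proton exchangers Slc9a2, Slc9a8 and Slc9a9 did not pass, at 0.52, -0.10 and -0.71 for day 35 minus day 10.

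Among phosphate carriers the rise was in Slc20a1, a sodium-phosphate carrier of most cells. Slc20a1 read 8.29, 8.53 and 9.14 in KO nerve at days 10, 14 and 35, against 8.21, 8.90 and 9.80 in WT nerve, higher at day 35 than at day 10 by 1.22 ± 0.22 (SE, adjusted p = 0.0218). Slc20a2, its close relative, differed by 0.55 (adjusted p = 0.0759). Slc34a3 passed at 0.77 (adjusted p = 0.0292) but lay above background at day 35 alone, at least 1.57-fold above day 10. It is 1 of the 13 carriers that entered through their day 35 signal, a selection that favoured a rise. Copper carriers moved in opposite directions, with the high-affinity importer Slc31a1 at -0.80 (adjusted p = 0.0306) and its relative Slc31a2 at 0.86 (adjusted p = 0.0435). The Slc31a1 call is uncertain, since a second probe, detected on 4 arrays, rose by 0.64 (adjusted p = 0.0455). Zinc carriers of the Slc30 and Slc39 families did not pass in any member. The iron exporter Slc40a1, at -1.01 (adjusted p = 0.164), and the iron importer Slc11a2, at 0.30 (adjusted p = 0.308), did not pass either.

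Nucleotide sugar carriers supply the Golgi with activated sugars for glycoproteins and glycolipids, and 4 of them were measured. None passed between days 10 and 35, and Slc35a2, the UDP-galactose carrier, fell between days 14 and 35. Slc35a2 read 6.96, 7.74 and 6.71 in KO nerve at days 10, 14 and 35, against 7.79, 7.81 and 7.0 in WT nerve, a difference of -0.92 ± 0.23 (SE, adjusted p = 0.0494) that remained past the threshold in 2 of 9 other ways of processing. UDP-galactose is the substrate from which myelin galactolipids are built. Slc35a1, the CMP-sialic acid carrier, differed by -0.07 (adjusted p = 0.789), Slc35a4 by -0.54 (adjusted p = 0.0681) and Slc35a5 by 0.11 (adjusted p = 0.725).

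Carriers of other organic solutes gave 2 that rose and 2 that fell between days 10 and 35, of 23 (17.4%, beside 23.5% of named genes). Slc22a21 read 6.51, 6.73 and 4.82 in KO nerve at days 10, 14 and 35, against 6.48, 6.68 and 4.60 in WT nerve; Slc22a21, a carnitine carrier found in mouse, was above background on all 4 arrays of days 10 and 14 and on neither array of day 35. It was at least 3.09-fold lower at day 35 than at day 10 and at least 3.58-fold lower than at day 14 (adjusted p = 0.00913 and 0.0175). Slc22a21 passed the detection filter only through the arrays where it was high, a selection that favoured a fall. Its relative Slc22a5, the main carnitine carrier, rose by 0.76 (adjusted p = 0.0406), while its second probe was above background on the 2 day 35 arrays alone. Cross-hybridization between these related genes was not tested. Slc23a2, the vitamin C carrier of brain, read 9.29 in KO nerve against 9.31 in WT nerve at day 10 and 10.13 in KO nerve against 9.86 in WT nerve at day 35, a difference of 0.69 (adjusted p = 0.0388). Slc29a4 read 7.11, 6.12 and 5.29 in KO nerve at days 10, 14 and 35, against 6.39, 6.23 and 5.28 in WT nerve; this carrier of monoamines and organic cations fell by 1.47 on the log2 scale (adjusted p = 0.0191). Slc22a17, a receptor for lipocalin 2, differed by -0.99 (adjusted p = 0.0274) from day 14, with a second probe at 0.51 in the other direction.

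Days 10 and 14, the pair of ages on 1 slide, did not separate any carrier after adjustment. In limma's test 0 of 148 passed, with a lowest adjusted p of 0.24, beside 0 of 13827 probes. An unadjusted p below 0.05 was found for 22 of 148 carriers, beside 1719 of 13827 probes (12.4%) and 996 of 6616 named genes (15.1%). Of the carriers described above, Slc1a4 and Slc25a27 already stood -1.11 and 0.90 log2 units apart between days 10 and 14, and Slc6a9 0.92. Myelin genes differed over the same step by a median of 0.79, and by 0.68 between days 10 and 35. Cell cycle genes differed by -1.58 and red cell genes by -1.80 between days 10 and 35, and their part in the carrier differences was not tested.

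Genes that work beside carriers were followed on a list of 24, of which 20 were measured. Between days 10 and 35, 3 of the 20 rose and 1 fell, beside 10.6% of named genes higher and 12.8% lower. Oxsr1, a kinase that controls cation-chloride cotransporters, differed by 1.98 (adjusted p = 0.00913), and its 2 day 35 arrays read 8.54 in KO nerve and 9.02 in WT nerve, above the range of 6.77 to 6.93 on the other 4. Atp1b3, a beta subunit of the sodium pump whose gradient drives many carriers, rose by 1.38 (adjusted p = 0.0124), and Pfkp, a phosphofructokinase of glycolysis, by 1.16 (adjusted p = 0.0205). Fxyd6, a regulator of the sodium pump, differed by -1.12 (adjusted p = 0.0211). Between days 14 and 35, Oxsr1 and Atp1b3 passed again, at 1.92 (adjusted p = 0.0175) and 1.26 (adjusted p = 0.0219). That is 2 of 20 higher and 0 lower, beside 7.5% of named genes higher and 8.75% lower.

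The loss of LIF, the comparison the study was built on, did not separate any carrier over the 3 ages. With the ages as replicates of the KO-WT difference, 0 of 148 carriers and 0 of 13827 probes passed in limma's test, and the lowest adjusted p of a carrier was 0.989. Unadjusted p-values lay below 0.05 for 8 of 148 carriers, beside 520 of 13827 probes (3.76%) and 258 of 6616 named genes (3.9%). The KO-WT difference was above 0 at all 3 ages for 24 carriers (16.2%, beside 11.7% of named genes) and below 0 at all 3 for 13 (8.78%, beside 11.4%), counts that carry no test. The median over ages was 0.03 for carriers and 0.01 for named genes. By substrate, the medians were 0.12 for amino acid carriers (28 of 36 above 0), -0.04 for sugar, -0.05 for carboxylate, 0.03 for ion, -0.19 for nucleotide sugar, -0.02 for mitochondrial and 0.00 for other carriers, and 3371 of 6616 named genes were above 0. A term for a KO-WT difference at day 10 apart from the later ages passed for 0 carriers and 0 probes. Its unadjusted p lay below 0.05 for 14 of 148 carriers, a larger share than the 734 of 13827 probes (5.31%), and these counts carry no test.

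**Figure D3:**
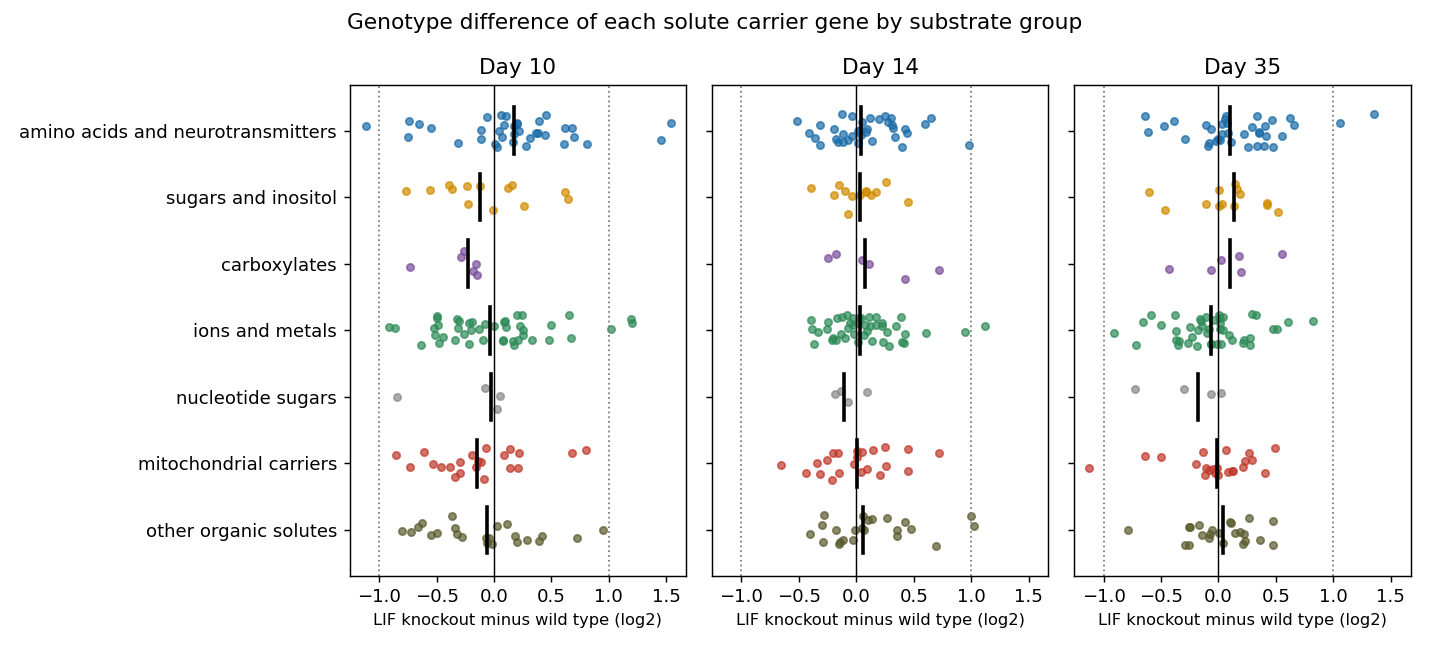
KO minus WT in log2 units for each tested carrier at days 10, 14 and 35, by substrate group. Points are genes, thick bars are group medians and dotted lines mark 1 log2 unit; 6 points lie past the dotted lines at day 10, 2 at day 14 and 3 at day 35, and at day 10 the 6 carboxylate carriers have a median of -0.22.

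Single-age differences have 1 array on each side, so they are given as values. At day 10, 5 carriers lay more than 1 log2 unit higher and 1 lower in KO nerve (4.05%, beside 3.33% of all probes, with 1.64% higher and 1.69% lower, and 4.34% of named genes). The 6 became 2 without background correction, 3 with an offset of 50 and 2 in the authors' deposited table. Slc7a7 read 7.22, 6.14 and 5.99 in KO nerve at days 10, 14 and 35, against 5.77, 6.06 and 5.64 in WT nerve, so the day 10 KO array stood above the other 5. Slc7a7 exchanges cationic for neutral amino acids and pairs with Slc3a2, which differed by 0.20 at that age. Slc40a1 read 9.78, 8.50 and 7.80 in KO nerve at days 10, 14 and 35, against 8.58, 8.89 and 8.52 in WT nerve; this iron exporter was 1.20 apart at day 10 and -0.72 at day 35. Slc26a1, a sulfate exchanger, and Slc41a3, a magnesium carrier, differed by 1.19 and 1.01 at day 10, and by -0.10 and -0.15 at day 35, where Slc26a1 was not above background in KO nerve. Slc36a2, a proton-coupled carrier of glycine, alanine and proline, was above background in KO nerve but not in WT nerve at day 10, at least 2.9-fold higher. Slc6a12 read 9.45, 10.07 and 9.08 in KO nerve at days 10, 14 and 35, against 10.56, 9.98 and 9.72 in WT nerve; this betaine and GABA carrier was the lowest in KO nerve relative to WT nerve.

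Other low values in KO nerve at day 10 were -0.91 for Slc4a8, -0.86 for Slc9a3r2, -0.85 for the iron carrier of mitochondria Slc25a37 and -0.84 for Slc35a2, and the fatty acid carrier Slc27a3 stood at 0.95. The day 10 pools also differed in other tissue. Myelin genes were lower in KO nerve (median -1.18, 0 of 9 above 0, summed raw signal 48198.4 in KO nerve and 62604.4 in WT nerve). Red cell genes were higher (median 0.90, 4 of 4 above 0, summed raw signal 26344.4 in KO nerve and 13005.4 in WT nerve), as were fat genes (median 1.40, 3 of 3 above 0, summed raw signal 3130.1 in KO nerve and 388.3 in WT nerve). Their part in the carrier differences was not tested.

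**Figure D4:**
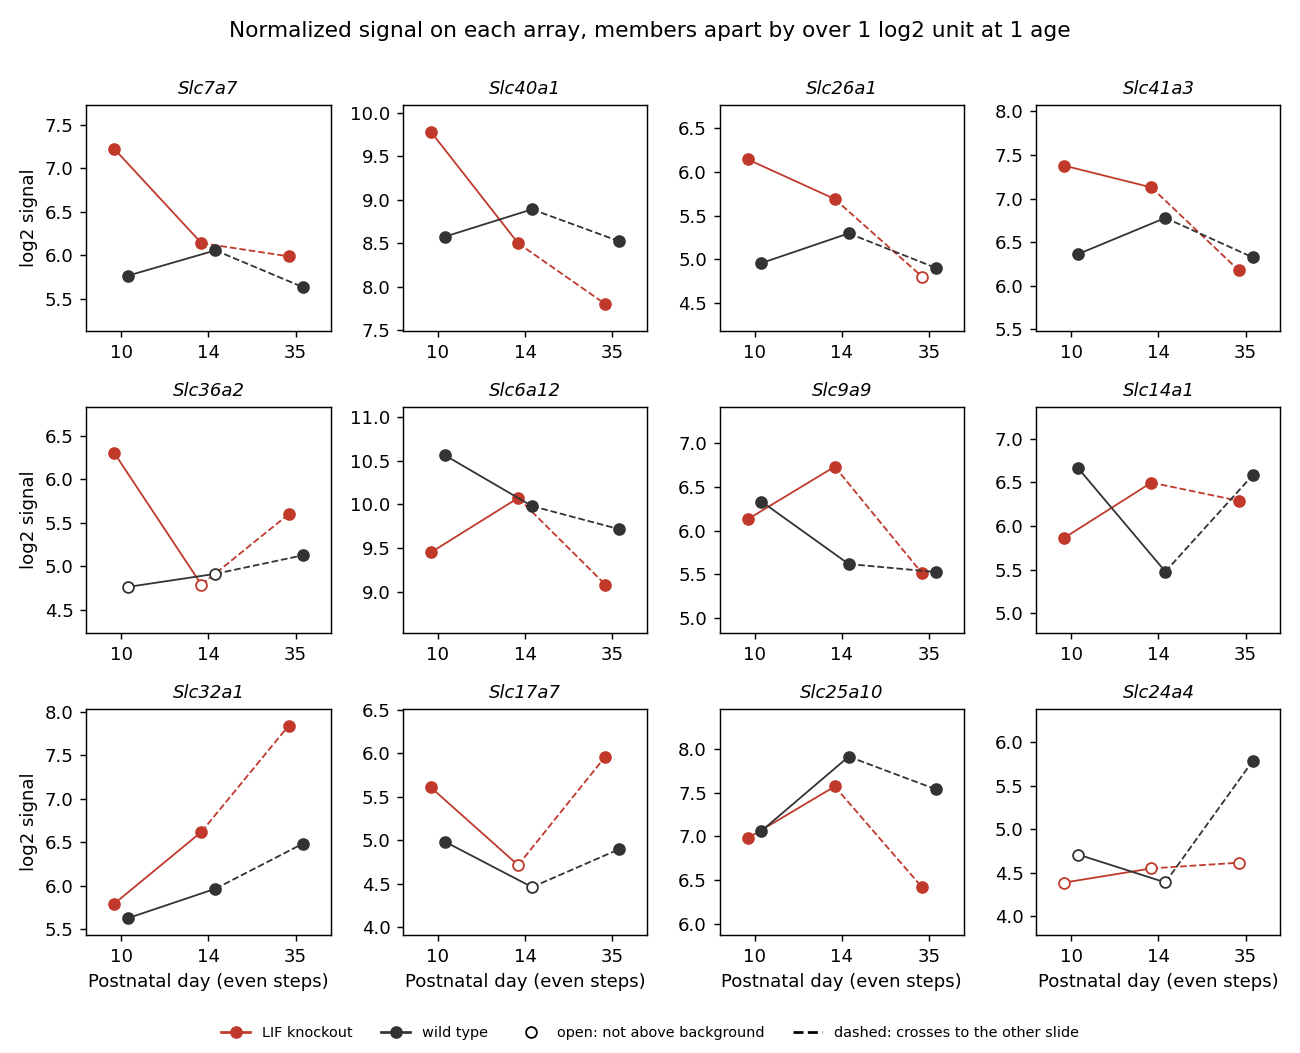
Normalized log2 signal on each of the 6 arrays for the 12 carriers that lay more than 1 log2 unit apart between KO nerve (red) and WT nerve (black) at 1 age, by postnatal day in even steps. Slc24a4, 1 of the 12, was above background on the WT array at day 35 alone and was not tested. Open points were not above background and dashed lines cross to the other slide; 5 carriers are high in the day 10 KO array and lie lower at the later ages, and Slc32a1 is higher in KO nerve at each age.

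At day 14, 2 carriers lay more than 1 log2 unit higher in KO nerve and 0 lower (1.35%, beside 1.14% of probes, with 0.485% higher and 0.651% lower, and 1.44% of named genes). None was left without background correction, with an offset of 50, without normalization or in the authors' deposited table, and 1 with cyclic loess or the mean of a gene's probes. Slc9a9 read 6.13, 6.73 and 5.51 in KO nerve at days 10, 14 and 35, against 6.33, 5.62 and 5.52 in WT nerve; Slc9a9 is a sodium-proton exchanger of endosomes. Slc14a1 read 5.86, 6.50 and 6.29 in KO nerve at days 10, 14 and 35, against 6.66, 5.48 and 6.58 in WT nerve; in this urea carrier the WT array at day 14 was the lowest of the 6, and the sign of the difference at day 10 was the opposite. Dimmer probes of Slc14a1, detected on 4 and 3 arrays, differed by 0.18 and 0.29 at day 14. Slc22a2, an organic cation carrier, and Slc38a4, a carrier of neutral and cationic amino acids, followed at 1.0 and 0.98. The lowest were Slc7a5 at -0.52, Slc25a26 at -0.44, Slc6a17 at -0.41, Slc27a4 at -0.40 and Slc2a8 at -0.39, all within 1 unit. Microglial genes were higher in KO nerve at this age (median 0.95, 7 of 7 above 0, summed raw signal 3019.8 in KO nerve and 1770.5 in WT nerve), as were rod photoreceptor genes (median 2.39, 4 of 4 above 0, summed raw signal 726.8 in KO nerve and 257.8 in WT nerve), and their part was not tested.

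At day 35, 2 tested carriers lay more than 1 log2 unit higher and 1 lower in KO nerve (2.03%, beside 2.55% of probes, with 1.51% higher and 1.03% lower, and 3.26% of named genes). The 3 became 1 without background correction, with an offset of 50 and in the authors' deposited table. Slc32a1 differed by 0.17, 0.65 and 1.35 at days 10, 14 and 35, the highest value of the day and above 0 at each age. Slc17a7 read 5.61, 4.71 and 5.96 in KO nerve at days 10, 14 and 35, against 4.98, 4.46 and 4.90 in WT nerve; Slc17a7, a second vesicular glutamate carrier, was not above background in either genotype at day 14. Slc25a10 read 6.98, 7.57 and 6.42 in KO nerve at days 10, 14 and 35, against 7.06, 7.92 and 7.54 in WT nerve; this mitochondrial dicarboxylate carrier was lower in KO nerve at each age and by 1.12 log2 units at day 35. The untested Slc24a4, a potassium-dependent sodium-calcium exchanger, was chosen after its values were seen. Slc24a4 was above background on the WT array at day 35 alone, at least 1.88-fold lower in KO nerve. Within 1 unit lay Slc4a4, a sodium-bicarbonate cotransporter of astrocytes, at 0.82, Slc7a10 at 0.66, the glutamine carrier Slc38a2 at 0.62, and on the low side Slc12a8 at -0.91, the ergothioneine carrier Slc22a4 at -0.78 and Slc35a5 at -0.72. Skeletal muscle genes were higher in KO nerve at day 35 (median 4.59, 6 of 6 above 0, summed raw signal 7363.1 in KO nerve and 384.4 in WT nerve) and red cell genes lower (median -1.87, 0 of 4 above 0, summed raw signal 3348.6 in KO nerve and 11066.6 in WT nerve). The pituitary sum was also higher (905.7 in KO nerve and 380.4 in WT nerve, median 0.52). Most of that difference was Prl (raw signal 574.6 in KO nerve and 83 in WT nerve). Gh, Chga and Cga differed by 0.012, 0.155 and 0.892 log2 units. The part of these tissues, also in Slc32a1 and Slc17a7, was not tested.

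The carriers called by age can be set out by genotype. For Slc25a27, the KO-WT difference was -0.30, -0.26 and -0.03 at days 10, 14 and 35, and for Slc6a9 -0.55, -0.36 and 0.35. Slc1a1 stood at 0.61, 0.02 and -0.06, Slc1a4 at 0.37, 0.45 and 0.02 and Slc2a6 at 0.26, 0.45 and 0.13. Between days 10 and 35 Slc6a9 differed by 2.45 in KO nerve and 1.55 in WT nerve, Slc25a27 by 2.30 and 2.03, and Slc1a1 by -2.23 and -1.56. The term for a separate KO-WT difference at day 10, which leaves 1 residual degree of freedom, gave an adjusted p of 0.892 for Slc6a9, 0.954 for Slc25a27, 0.886 for Slc1a1, 0.96 for Slc1a4 and 0.99 for Slc2a6 in limma's test, so none passed.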

How the data were processed

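Biotin-labelled RNA of 6 nerve pools (500 ng, TRIzol extraction per the labels' protocols) was hybridized to Illumina MouseRef-8 arrays. The deposited array files hold intensity per probe, unnormalized BeadStudio 1.5.0.34 averages per the file headers, and a deposited detection score, a fraction read here as 1 minus the detection p. The authors' deposited value table also holds intensity, scaled by array; its probes carry gene names, so 8935 were linked to array rows by equal signal (tolerance 0.05 units), and 51 of 51 carrier probes whose row name holds a gene number had the same one. Here limma 3.58.1 in R 4.3.3 corrected background (normexp, offset 16), quantile-normalized and took log2 of the deposited intensity. Probes detected (p below 0.05) on at least 2 arrays, 13827, were tested with 2 residual degrees of freedom and 3.68 prior ones, two-sided. The fit was tested on simulated data. Named were carriers past the threshold by age and, by genotype, the 5 highest and 5 lowest at each age plus bounds over 2-fold; other carriers are named by role, after their values were seen. Members and lists were chosen with earlier results of these data known. "At least" folds set the bright group's mean over the lowest detected signal or the dim probe's own, whichever was higher. The labels do not say whether pools came from separate litters, so p-values measure the spread between these arrays, and their number limits precision. Alternatives covered background, normalization, the authors' table, filters, probe choice and leaving out an age.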

Additional observations from a re-analysis of the deposited data

Results flagged for a closer look

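In 5 carriers the KO-WT difference took opposite signs at 2 ages, each beyond 0.609 log2 units, or 3 times the median residual SD of the carriers (3.38% of 148, beside 171 of 6616 named genes, 2.58%). These differences rest on 1 array a side and were not tested against each other. The residual SD is that of a single array, so the limit is less than 3 SDs of a difference between 2 arrays. Slc13a3, the dicarboxylate carrier, stood at -0.73 at day 10 and 0.72 at day 14. Slc14a1, the urea carrier, stood at -0.80 and 1.02 at the same ages. Its dimmer probes, detected on 4 and 3 arrays, had the same signs but stayed within the limit. They stood at -0.58 and -0.13 at day 10 and at 0.18 and 0.29 at day 14. Slc25a37, which carries iron into mitochondria, stood at -0.85 and 0.72, while Slc40a1, the iron exporter, stood at 1.20 at day 10 and -0.72 at day 35. Slc22a4, the ergothioneine carrier, changed sign at both steps, at -0.66 on day 10, 0.69 on day 14 and -0.78 on day 35. Slc25a37 and Slc40a1 are abundant in erythroid cells and macrophages, and red cell genes had medians of 0.90, -0.65 and -1.87 at days 10, 14 and 35; their part was not tested.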

How the results depend on the processing

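No paired analysis was possible because the labels give no replicate numbers and each genotype and age had 1 array, beyond the genotype comparison itself, which sets KO against WT within each age. Over 9 alternatives, the named carriers kept direction and call in 230 of 259 values for day 35 minus day 10 (29 lost the call) and in 139 of 189 for day 35 minus day 14 (49 lost it, 1 reversed). The reversal was Slc31a1, 0.057 between days 14 and 35 with the mean of its probes. Changing the detection filter or leaving out an age keeps a probe's fitted age difference by construction, so there only the call could change. The same holds for the mean of probes where a gene has a single tested probe, apart from its call. Without a detection filter, the comparison with day 10 called 1906 probes and that with day 14 called 14 carriers and 1079 probes. The latter called 1064 probes without normalization, 1231 in the authors' deposited table, and 0 carriers and 0 probes without day 10. The genotype comparison called 1 probe without day 14 and 1 without day 35, and days 14 and 10 differed at 7 probes without day 35. Without normalization the carrier median was -0.28 between days 10 and 35 (all probes -0.24) and -0.17 for KO minus WT at day 14 (all probes -0.20). Carriers beyond 1 log2 unit numbered, at day 10, 2 without background correction, 3 with offset 50 and 2 in the authors' table; at day 14, 0 in each of these and without normalization, and 1 with cyclic loess or the mean of probes; at day 35, 1 in each of the first 3. Dim probes shrink with a larger offset by construction. The cause of the other shifts was not tested. Signals near background limit Slc5a11, Slc25a30, Slc34a3, Slc22a21, Slc17a7 and Slc36a2.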
